A study of Homo sapiens with 13 samples.

Results

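Some polyamide-enriched loci of H1 cells were reported as several adjoining peaks, and these are the loci described here. H1 is an established human embryonic stem cell line. In each of 4 deposited peak lists, peaks of one chromosome were joined into a locus when the gap between them was 1 kb or less, and loci that held 2 or more peaks were kept. The members were 1196 of 6060 peaks (19.7%), in 565 of 5429 loci (10.4%). The members were selected on the deposited positions of the peaks. The number of peaks per locus, the span, the gaps and the scores from the same peak calls are therefore given as a description, with no test.

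Polyamides are chains of N-methylpyrrole and N-methylimidazole units that lie in the minor groove of DNA and read short runs of base pairs. Several short sites can lie close together in the genome, so that a captured stretch can hold more than a single site. In COSMIC-seq the polyamide carries psoralen, which bonds to DNA under ultraviolet light, and biotin, by which the bonded fragments are pulled down and sequenced. The captured fragments are longer than a site, so a peak is a window around bound DNA and not the site itself.

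The libraries behind the lists came from H1 cells that received compound 2 or compound 4 for 24 h. Each compound had 2 libraries at 20 nM and 2 at 400 nM, or 8 libraries in all, and both compounds carried psoralen and biotin. By the structures in the labels, compound 2 has 2 runs of rings joined by a short turn, which allows a hairpin, and compound 4 is 1 linear chain with spacers between its rings. Each compound had a list named for 400 nM and a list named for the compound with no dose, called undosed here. Which libraries made the undosed lists is not stated, so an undosed and a 400 nM list are compared as lists and not as known doses. Each list was 1 set of intervals with no replicate, on the human build hg19, and the sequencing depth behind it is unknown. Coordinates are counted from 1.

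Adjoining peaks were found in every list, in unequal shares. They made up 133 of 486 peaks in the undosed compound 2 list (27.4%, exact 95% binomial interval 23.4 to 31.6%) and 155 of 923 in the 400 nM compound 2 list (16.8%, 14.4 to 19.4%). In the compound 4 lists they made up 525 of 3070 undosed peaks (17.1%, 15.8 to 18.5%) and 383 of 1581 peaks at 400 nM (24.2%, 22.1 to 26.4%). The undosed share was the higher one for compound 2 and the lower one for compound 4. In both compounds the list with fewer peaks had the higher share, and whether list length bears on it was not tested. Intervals here treat peaks or loci as independent and cover counting error only.

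Counted as loci, 62 of 415 in the undosed compound 2 list held several peaks, 58 of 826 in the 400 nM compound 2 list, 257 of 2802 in the undosed compound 4 list and 188 of 1386 in the 400 nM compound 4 list. Most were pairs. Exactly 2 peaks were held by 54, 42, 247 and 184 of these loci in that order, and 3 or more by 8, 16, 10 and 4. The 400 nM compound 2 list stood apart from the others by its long loci. It had 3 loci of 4 peaks, 3 of 5, 3 of 6 and 1 of 8, while the longest run elsewhere was the 1 locus of 6 peaks in the 400 nM compound 4 list.

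All but 6 and 1 peaks of compound 2 (undosed, 400 nM) and 138 and 19 of compound 4 had the 1 fixed width of their list. That width was 616 bp in the undosed list of compound 2, with 576 bp at 400 nM, while compound 4 had 570 bp undosed and 604 bp at 400 nM. These widths were also the median spans of loci of 1 peak. Loci of several peaks had a median span of 845 bp in the undosed compound 2 list (lowest 771, highest 2898) and 984 bp in the 400 nM compound 2 list (775 to 5768). In the undosed and 400 nM compound 4 lists the medians were 772 bp (367 to 2255) and 809 bp (556 to 4372). Spans under 1000 bp were found for 248 of 257 undosed and 179 of 188 400 nM loci of compound 4, and for 49 of 62 and 31 of 58 loci of compound 2. Spans over 2000 bp were found for 15 loci in the 400 nM compound 2 list and for 2, 2 and 3 loci in the undosed compound 2, undosed compound 4 and 400 nM compound 4 lists.

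Most adjoining peaks were not side by side but overlapped. Of 631 pairs of neighbours within loci, 564 overlapped (89.4%) and 67 lay apart, that is, with no base in common. The pairs apart were 7 of 71 in the undosed compound 2 list, 45 of 97 in the 400 nM compound 2 list, 8 of 268 in the undosed compound 4 list and 7 of 195 in the 400 nM compound 4 list. The 400 nM compound 2 list therefore held 45 of the 67 pairs apart. Among its loci, 27 of 58 consisted of 2 or more separate stretches, against 6 of 62, 8 of 257 and 5 of 188 in the other lists.

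The spacing of neighbouring peaks of fixed width had a common lower edge in the 4 lists. Taken over pairs of peaks that both had the fixed width of their list, the smallest distance between 2 starts was 199 bp in each list, although the widths differed. Such pairs were 217 of 268 undosed and 183 of 195 400 nM pairs of compound 4, and 69 of 71 and 97 of 97 of compound 2. The pairs left out could start closer. In 14q22.3 of the undosed compound 4 list, both peaks started at chr14:55701164. The median distance was 225 bp in the undosed compound 2 list (quartiles 206 and 286) and 356 bp in the 400 nM compound 2 list (217 and 1100). In the undosed and 400 nM compound 4 lists it was 204 bp (200 and 217) and 206 bp (202 and 221.5). A distance of 199 to 250 bp was found for 193 of 217 undosed and 152 of 183 400 nM pairs of compound 4, and for 47 of 69 and 34 of 97 pairs of compound 2. The pairs of compound 4 were thus mostly just above 199 bp, and those of compound 2 at 400 nM less often so. The largest distances were alike, with 1517 bp in the undosed and 1576 bp in the 400 nM list of compound 2, and 1566 and 1466 bp in those of compound 4.

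**Figure D1:**
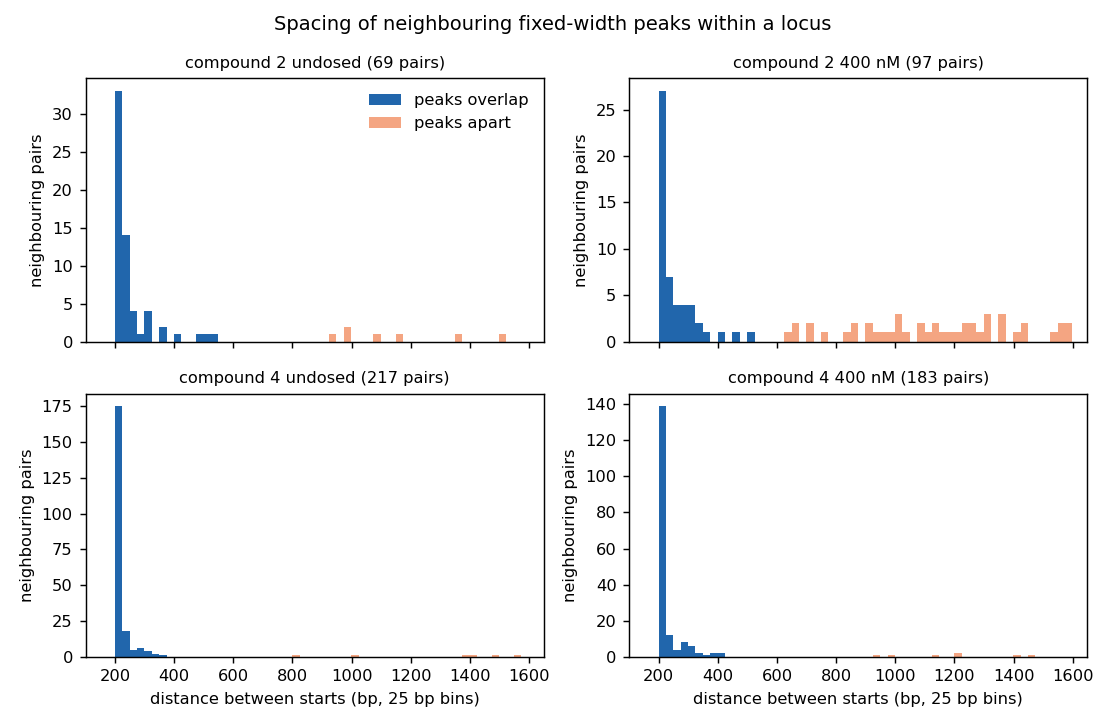
Histograms of the distance in bp between the starts of neighbouring fixed-width peaks of a locus, in 25 bp bins, with the number of pairs on the vertical axis and a panel for each list. No pair lies under 199 bp, and pairs apart (orange) are frequent only in the 400 nM compound 2 panel, where they number 45 of 97.

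Scores within an overlapping pair ran in one direction along the chromosome. In the undosed compound 4 list the peak at the lower coordinate had the higher score in 251 of 260 overlapping pairs (96.5%, exact 95% interval 93.5 to 98.4%). The number was 173 of 188 in the 400 nM compound 4 list (92.0%, 87.2 to 95.5%), 57 of 64 in the undosed compound 2 list (89.1%, 78.8 to 95.5%) and 39 of 52 in the 400 nM compound 2 list (75%, 61.1 to 86.0%).

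The order was tied to the spacing. In fixed-width pairs whose starts lay 199 to 250 bp apart, the lower coordinate scored higher in 191 of 193 undosed and 149 of 152 400 nM pairs of compound 4 and in 45 of 47 and 29 of 34 pairs of compound 2. In fixed-width pairs that overlapped with starts over 250 bp apart, the numbers were 13 of 18 and 14 of 24 for compound 4 and 10 of 15 and 10 of 18 for compound 2. Among pairs apart the lower coordinate scored higher in 26 of 67. By list these were 1 of 7 (undosed) and 17 of 45 (400 nM) for compound 2, and 3 of 8 and 5 of 7 for compound 4. The common order was therefore seen in closely spaced pairs, and what produced it was not tested.

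**Figure D2:**
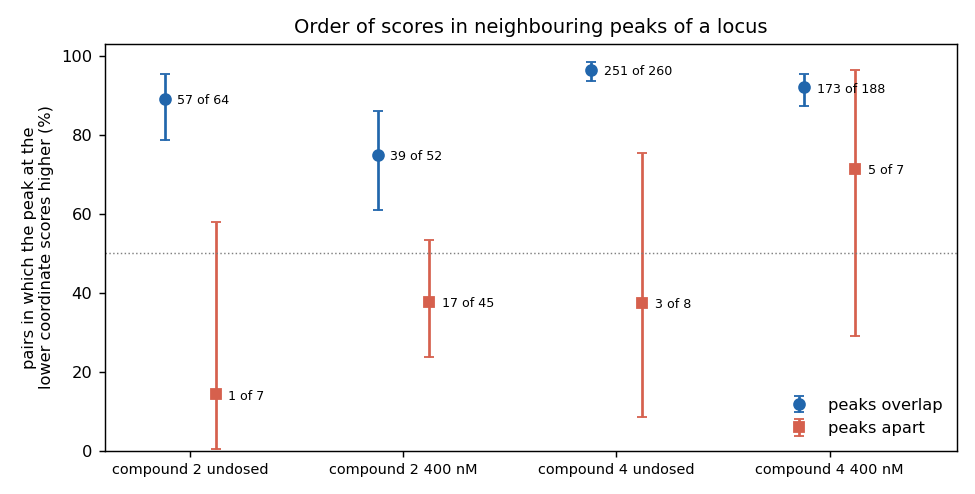
Share of neighbouring pairs in which the peak at the lower coordinate had the higher score, for overlapping pairs (blue circles) and pairs apart (red squares) of each list, with exact 95% binomial intervals and the counts beside each point. The dotted line marks 50%. Overlapping pairs lie between 75% and 96.5%, and pairs apart between 14.3% and 71.4%.

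The joining distance of 1 kb fell in a sparse part of the gap distribution in 3 lists. Gaps over 1000 and up to 2000 bp were found between 1, 7 and 4 neighbours in the undosed compound 2, undosed compound 4 and 400 nM compound 4 lists, and between 21 neighbours in the 400 nM compound 2 list. Just inside the limit, that last list had a pair in 10p12.31 with a gap of 1000 bp (chr10:18850729-18851304 and chr10:18852305-18852880, scores 25.2 and 37.3). Just outside, it had a pair in 10p11.1 with a gap of 1057 bp (chr10:39108116-39108691 and chr10:39109749-39110324, scores 42.4 and 38.7). The largest joined and smallest unjoined gaps were 901 and 1087 bp in the undosed compound 2 list (in 10p11.1 and 5p14.2), 996 and 1044 bp in the undosed compound 4 list (1p32.3 and 18q12.1) and 862 and 1157 bp in the 400 nM compound 4 list (19q11 and 15q21.3).

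Of the 5 loci with the most peaks of compound 2 at 400 nM, 3 lay within the bands annotated as the centromere of chromosome 10. The locus with the most peaks, 8, covered 4960 bp in 10p11.1 (chr10:39109749-39114708). Its scores from low to high coordinate were 38.7, 23.0, 40.6, 34.7, 38.4, 39.2, 31.4 and 31.5, so that no single peak stood out. A locus of 6 peaks in the same band (chr10:39077388-39081896, 4509 bp) held the highest-scoring peak of the list, at 107, as its peak 3, between peaks of 25.7 and 41.6. Another locus of 6 (chr10:39115969-39121736, 5768 bp) was the widest of all lists and had its highest score, 56.2, in its peak 4.

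Outside chromosome 10, the same list had a locus of 6 peaks in 1q42.11 (chr1:224199583-224204400, 4818 bp), far from the centromere, with scores of 24.7, 80.8, 42.4, 25.3, 36.8 and 27.9. In 20q11.21 a locus of 5 peaks, none overlapping another, covered 5404 bp (chr20:29821518-29826921) with scores from 23.5 to 49.3. Of these 5 loci, that of 8 peaks was overlapped by 1 undosed compound 2 peak and the others by none.

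The long locus of compound 4 was in 15q22.31 of the 400 nM list (chr15:65243165-65247536, 4372 bp, 6 peaks). Its scores were 32.2, 43.4, 31.6, 27.7, 35.4 and 39.0 from low to high coordinate, with ranks from 474 to 1068 of 1581. It overlapped 3 undosed compound 4 peaks. The undosed compound 4 list had 1 locus of 4 peaks, in Yq11.221 (chrY:16344080-16345381), with scores of 141, 78.0, 48.6 and 75.9. The undosed compound 2 list had 1 locus of 4, in 12q12 (chr12:40105214-40108111), where scores of 37.3, 49.1, 81.1 and 85.2 rose along the coordinate.

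Loci of 3 peaks more often had the highest score at the lowest coordinate. The first peak was the highest in 5 of 7 undosed and 2 of 6 400 nM loci of 3 of compound 2, and in 7 of 9 and 3 of 3 of compound 4. The locus in 12q23.3 is the clearest case, since it led the undosed compound 4 list (chr12:108350484-108351247) with scores of 982, 933 and 742, ranks 1, 2 and 4. In the 400 nM list the same place (chr12:108350375-108351183) again held 3 peaks, with scores of 254, 234 and 160 and ranks 2, 3 and 24.

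**Figure D3:**
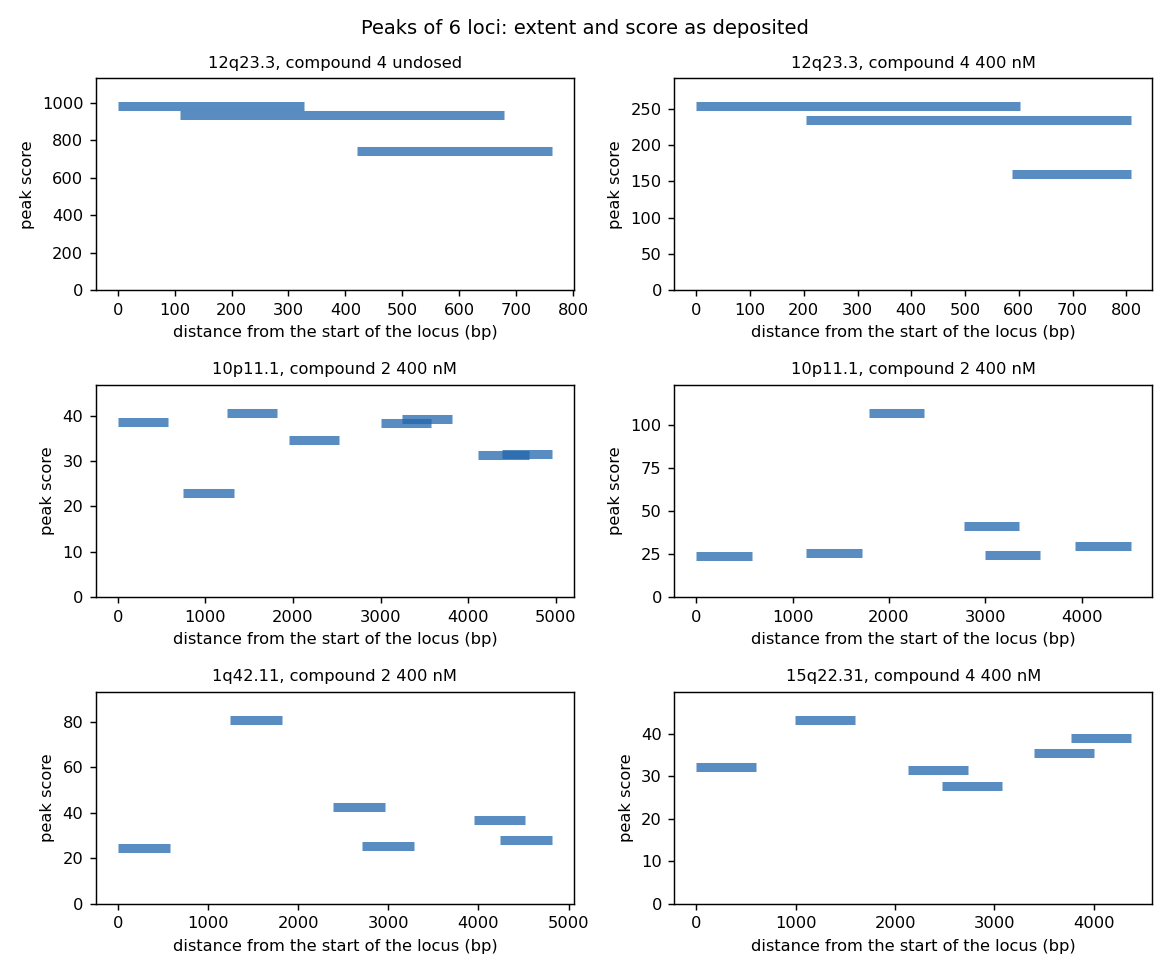
Peaks of 6 loci drawn as bars, with the distance from the start of the locus in bp on the horizontal axis and the deposited score of each peak on the vertical axis, which has its own scale in each panel. The 12q23.3 locus of compound 4 is a short stack with falling scores (982, 933 and 742 undosed), while the 8 peaks in 10p11.1 of compound 2 at 400 nM extend over 4960 bp.

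Other loci of several peaks among the highest scores were pairs in which the second peak often scored much lower. In the undosed compound 4 list the 10q24.2 locus (chr10:100035828-100036408) had scores of 522 and 54.5, the 6p22.1 locus (chr6:29641822-29642532) 597 and 96.6, the 14q22.3 locus (chr14:55701164-55701600) 510 and 113, and the 20p11.21 locus (chr20:22519263-22519832) 520 and 339. At 400 nM the pairs were in 20p12.1 (chr20:13829027-13829631, 255 and 148), 1p36.22 (chr1:9283276-9283831, 227 and 201), 2q31.1 (chr2:173102439-173103082, 212 and 137) and 10p12.31 (chr10:21516391-21517193, 210 and 49.1). Over the whole list, the highest score of a locus was a median of 1.48 times the lowest in the undosed and 1.53 times in the 400 nM compound 4 list, and 1.18 and 1.30 times in those of compound 2. The largest ratio was 9.57, in the undosed compound 4 list, which is that of the 10q24.2 locus.

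For compound 2 the undosed list was led by a locus of 3 peaks in 8p23.1 (chr8:12417572-12418342) with scores of 385, 180 and 130. At 400 nM that place held 2 peaks (chr8:12417488-12418419, 97.2 and 69.9, ranks 4 and 8). Undosed loci of 3 in 14q12 (chr14:29486906-29487939, 111, 90.6 and 40.1), 11q22.2 (chr11:102896008-102897091, 88.1, 85.5 and 49.8) and 1q24.1 (chr1:165551761-165552814, 70.4, 64.3 and 54.0) each had falling scores from low to high coordinate. The undosed pairs in 18p11.31 (chr18:5307260-5308076, 101 and 88.9) and 5q21.3 (chr5:107045157-107046058, 90.4 and 92.2) completed the 5 highest-scoring loci of several peaks with 8p23.1, 14q12 and 11q22.2. Top ranks in the list were 1 for 8p23.1, 10 for 14q12, 17 for 18p11.31, 18 for 5q21.3 and 23 for 11q22.2. Loci of 1 peak held ranks between these. At 400 nM the 5 highest-scoring loci of several peaks were those of 6 peaks in 10p11.1 and 1q42.11, that in 8p23.1, and a pair apart in 10p11.1 (chr10:39125350-39127224, 70.4 and 29.3). Their top peaks ranked 1, 4, 6, 7 and 13 in that list.

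Loci of several peaks scored higher in their list than loci of 1 peak. A peak's percentile is its place among the scores of its own list, with 100 the highest, and a locus took the median of its peaks. In the undosed compound 2 list the median percentile was 61.0 (quartiles 36.8 and 78.0, n = 62 loci) against 44.7 (22.2 and 68.7, n = 353 loci). At 400 nM it was 71.6 (56.5 and 84.1) against 45.6 (22.2 and 69.8). In the undosed compound 4 list it was 74.6 (48.6 and 89.1) against 45.2 (22.5 and 69.0), and at 400 nM 70.7 (52.6 and 83.5) against 43.4 (20.6 and 67.2). The ranges overlapped widely in every list. Scores and positions come from the same calls, so no test was made.

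The choice of peak within a locus mattered for this difference. By the lowest-scoring peak of each locus, the difference was -6.17 points in the undosed compound 2 list and 1.95 points in the 400 nM compound 2 list, where the median peak gave 16.3 and 26.1. A minimum over more peaks is lower from the start, so a drop follows from the measure itself. By the same measure the differences of compound 4 were 19.6 points undosed and 15.2 at 400 nM, where the median peak gave 29.4 and 27.3. In compound 4, then, the median of the weakest peaks of these loci also lay above the median of peaks that stood alone.

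**Figure D4:**
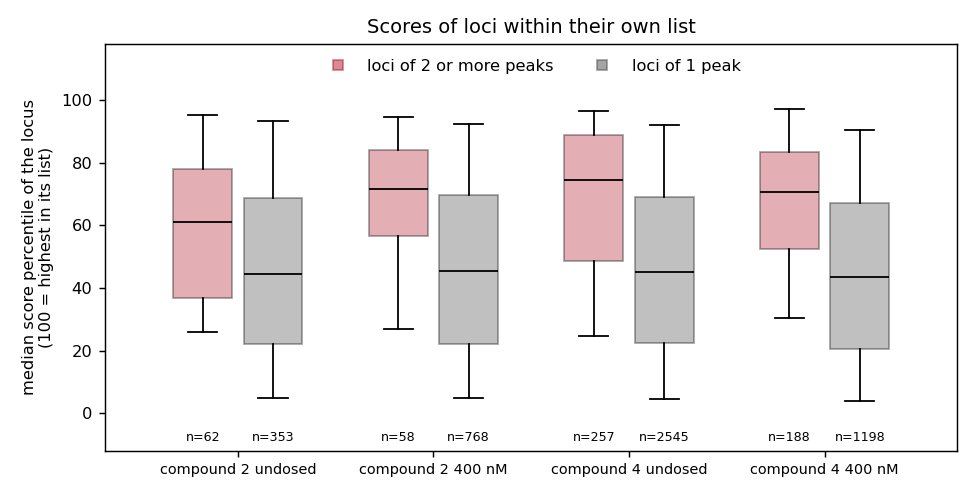
Median score percentile of loci of 2 or more peaks (red) and of 1 peak (grey) within each list, with boxes at the quartiles, a line at the median, whiskers at percentiles 5 and 95, and the number of loci under each box. Red medians lie between 61.0 and 74.6 and grey medians between 43.4 and 45.6, with wide overlap.

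Seen from the top of the lists, members made up 12 of the 25 highest-scoring peaks in both compound 2 lists and the undosed compound 4 list, and 21 of 25 in the 400 nM compound 4 list. From the lowest 20% of a list by score to the highest 20%, their share went from 17.5 to 46.9% for undosed compound 2 and from 5.43 to 34.1% at 400 nM. For compound 4 it went from 8.31 to 39.9% and from 7.59 to 48.3%.

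Whether these loci were found again was read in the compound's other list, which did not choose them. A locus recurred when any of its peaks overlapped a peak of the other list by at least 1 bp. In the undosed compound 4 list 165 of 257 loci of several peaks recurred (64.2%, exact 95% interval 58.0 to 70.1%), where 25.3% of all loci of that list did. Loci of 1 peak recurred in 543 of 2545 cases (21.3%, 19.8 to 23.0%), a difference of 42.9 points (Newcombe 95% interval 36.6 to 48.7). In the 400 nM compound 4 list 154 of 188 recurred (81.9%, 75.7 to 87.1%), where 51.0% of all loci did. Loci of 1 peak there recurred in 553 of 1198 cases (46.2%, 43.3 to 49.0%), a difference of 35.8 points (29.0 to 41.4).

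For compound 2 the shares of loci of several peaks that recurred were lower than for compound 4. In its undosed list 24 of 62 loci of several peaks recurred (38.7%, 26.6 to 51.9%), where 25.1% of all loci did. Loci of 1 peak recurred in 80 of 353 cases (22.7%, 18.4 to 27.4%), a difference of 16.0 points (3.99 to 29.1). In its 400 nM list 14 of 58 recurred (24.1%, 13.9 to 37.2%), where 12.6% of all loci did. Loci of 1 peak recurred in 90 of 768 cases (11.7%, 9.53 to 14.2%), a difference of 12.4 points (2.91 to 25). Loci of one list are not replicates and each arm had a single list, so no p-value was computed. If an undosed list included libraries of the 400 nM group, part of the recurrence would hold by construction.

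The difference was smaller among loci whose highest peaks had like scores. Each list was split into 5 bins of 20% by the score of the highest peak of the locus, and the difference was averaged over the bins with the loci of several peaks as weights. It was then 6.18 points in the undosed compound 4 list, where it was 42.9 without the split, and 0.304 points in the 400 nM compound 4 list, where it was 35.8. For compound 2 it was 2.45 points undosed and 6.94 points at 400 nM, where it was 16.0 and 12.4. What part of the difference score accounts for was not tested further. The highest of several peaks scores higher from the start, so these bins can place loci of several peaks higher than their median peaks would. Bins by the median peak were not made. In the highest bin of the undosed compound 4 list, 143 of 155 loci of several peaks recurred (92.3%) and 314 of 369 loci of 1 peak (85.1%). In the same bin at 400 nM these were 113 of 113 (exact 95% interval 96.8 to 100%) and 161 of 164 (98.2%).

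In the middle bin of the 400 nM compound 4 list, 6 of 22 loci of several peaks recurred (27.3%, 10.7 to 50.2%) and 109 of 256 loci of 1 peak (42.6%, 36.4 to 48.9%). In the highest bin of the undosed compound 2 list, 14 of 32 loci of several peaks recurred (43.8%) and 25 of 52 loci of 1 peak (48.1%). At like score of the highest peak, the intervals of both kinds of loci overlapped in each bin of each list that held both. That does not show that they recur alike.

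**Figure D5:**
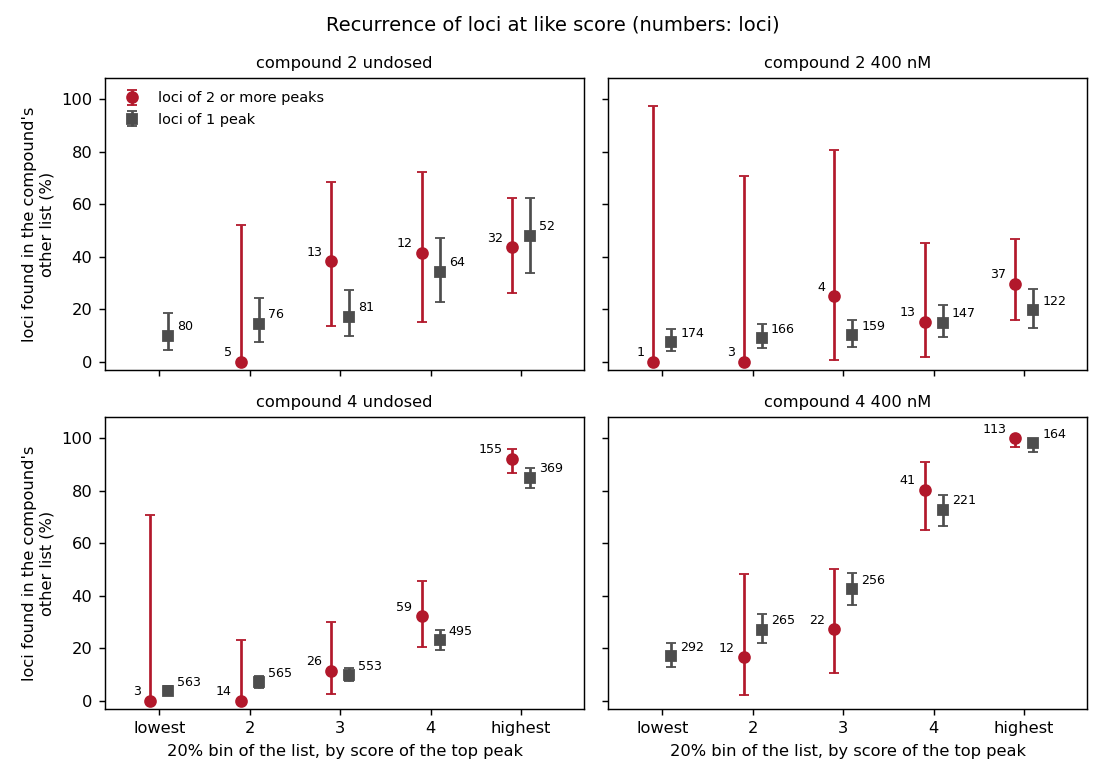
Share of loci found in the compound's other list, by 20% bin of the list according to the score of the top peak, for loci of 2 or more peaks (red circles) and of 1 peak (grey squares), with exact 95% binomial intervals and the number of loci beside each point. For compound 4 both kinds rise with score, to 92.3% and 85.1% in the highest bin of the undosed compound 4 list, and their intervals overlap within each bin that holds both kinds.

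Some recurring loci held several peaks again. In the undosed compound 4 list 87 of 257 loci of several peaks overlapped a locus of several peaks at 400 nM (33.9%, 28.1 to 40.0%), where 5.53% of all loci did so and 68 of 2545 loci of 1 peak (2.67%, 2.08 to 3.38%). In the 400 nM compound 4 list they were 87 of 188 (46.3%, 39.0 to 53.7%), where 11.9% of all loci did so and 78 of 1198 loci of 1 peak (6.51%). For compound 2 they were 7 of 62 in the undosed list (11.3%, 4.66 to 21.9%), where 3.37% of all loci did so, and 7 of 58 at 400 nM (12.1%, 4.99 to 23.3%), where 2.91% of all loci did so. Restricted to loci that recurred, several peaks were met again for 52.7% of undosed and 56.5% of 400 nM loci of compound 4 that held several, and for 12.5 and 14.1% of those that held 1. For compound 2 the shares were 29.2% undosed and 50% at 400 nM, against 8.75 and 18.9% of those that held 1. These shares were not compared at like score. In compound 4, 143 of 165 undosed and 113 of 154 400 nM recurring loci of several peaks lay in the highest 20% bin by score. Of recurring loci of 1 peak, 314 of 543 and 161 of 553 did.

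Of the recurring loci of compound 4 that held several peaks, 78 of 165 undosed and 67 of 154 at 400 nM met a locus of 1 peak. Of 87 matched places with several peaks in both lists, 82 had an equal number, a count that is high from the start because most such loci are pairs, 2 had more at 400 nM and 3 had more in the undosed list. The first peak was the highest in both lists at 79 of the 87. That count is also high from the start. Over all neighbouring pairs of compound 4, the lower coordinate scored higher in 254 of 268 undosed and 178 of 195 at 400 nM. Of 7 matched places of compound 2, 2 had an equal number, 1 had more peaks at 400 nM and 4 had more in the undosed list. The median distance between the midpoints of the highest peaks of the 2 lists was 30.5 bp for the recurring undosed and 41.0 bp for the recurring 400 nM loci of compound 4, and 68.0 and 88.5 bp for those of compound 2. For recurring loci of 1 peak it was 30 and 28 bp for compound 4 and 37.0 and 39.5 bp for compound 2.

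Among the matched places of compound 4, 12q23.3 ranked first by the sum of ranks, with 3 peaks in both lists. The 2q35 locus also had 3 in both (chr2:221410748-221411599 undosed with 380, 374 and 260, and chr2:221410615-221411629 at 400 nM with 161, 151 and 86.0). The 6p22.3 locus had 3 peaks undosed (chr6:24029497-24030362, 414, 265 and 66.0) and 2 at 400 nM, where its top peak ranked 19. The loci in 4q22.1 and 4q31.3 had 3 peaks undosed and 2 at 400 nM, and that in 1p21.2 had 2 undosed and 3 at 400 nM (chr1:102123121-102124125, 101, 62.1 and 28.2). The undosed locus of 3 in 7p14.1 (chr7:37886546-37888136, 128, 70.2 and 322) met a single peak at 400 nM, which ranked 25.

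For compound 2 the matched places with 3 or more peaks in a list were in 8p23.1, 14q12, 10p11.1, 1q24.1, 2q31.2 and 12q12. The 14q12 locus had 3 peaks in both lists, with top ranks of 10 undosed and 33 at 400 nM. The 12q12 locus had 4 peaks undosed and 2 at 400 nM, and the 10p11.1 locus (chr10:39123811-39126477 undosed) had 3 and 2. In 2q31.2 the numbers were 2 undosed and 3 at 400 nM.

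Loci whose peaks all overlapped and loci with separate stretches were also taken apart, a split made after their values were seen. In the 400 nM compound 2 list 10 of 31 loci of overlapping peaks recurred (32.3%, 16.7 to 51.4%) and 4 of 27 with separate stretches (14.8%, 4.19 to 33.7%). In the 400 nM compound 4 list these were 152 of 183 (83.1%, 76.8 to 88.2%) and 2 of 5. In the undosed lists they were 21 of 56 and 3 of 6 for compound 2 and 159 of 249 and 6 of 8 for compound 4. The intervals overlapped, which does not show that the shares were alike. Loci with separate stretches were few except at 400 nM of compound 2.

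Loci with separate stretches in the 400 nM compound 2 list lay mostly near centromeres. Within 5 Mb of a centromere were 23 of these 27 loci (85.2%, exact 95% interval 66.3 to 95.8%), 5 of 31 loci of overlapping peaks (16.1%, 5.45 to 33.7%) and 70 of 768 loci of 1 peak (9.11%, 7.17 to 11.4%). Chromosome 10 held 15 of the 23. By band, 10p11.1 had 13 loci of several peaks among its 19 loci, 10q11.21 had 5 of 11, 20q11.21 had 5 of 9 and 16q11.2 had 3 of 3. For undosed compound 2, 11 of 62 loci of several peaks lay within 5 Mb of a centromere (17.7%, 9.20 to 29.5%) and 27 of 353 loci of 1 peak (7.65%, 5.10 to 10.9%). For undosed compound 4 these were 20 of 257 (7.78%) and 160 of 2545 (6.29%), and at 400 nM 25 of 188 (13.3%, 8.79 to 19.0%) and 113 of 1198 (9.43%, 7.84 to 11.2%). The intervals overlapped in these 3 lists, which does not show that the shares were alike. Without these regions the members of the 400 nM compound 2 list were 9.0% of its remaining peaks in place of 16.8%, and 9 of 30 of its loci of several peaks recurred.

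Overlap with the other compound was rare over all loci at 400 nM. There 0 of 58 loci of compound 2 and 0 of 188 of compound 4 overlapped a peak of the other compound (upper limits of the exact intervals 6.16 and 1.94%), where 0.363 and 0.216% of all loci did. In the undosed lists 3 of 62 loci of compound 2 did so (4.84%, 1.01 to 13.5%), where 11.6% of all loci did and 45 of 353 loci of 1 peak (12.7%, 9.45 to 16.7%). Of the undosed compound 4 loci, 8 of 257 did so (3.11%, 1.35 to 6.04%), where 1.71% of all loci did. The compound 2 loci, named after their values were seen, were in 1p21.1, 20p12.2 and 8p23.1. At 1p21.1 both compounds had 2 peaks (chr1:106159188-106160014 for compound 2 and chr1:106159144-106160079 for compound 4), ranked 351 and 1377 at best in their lists, and neither locus recurred at 400 nM.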

How the data were processed

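The authors deposited 4 peak lists of 4 columns, in which each interval carries a score of unstated scale. The submitters' processing notes name hg19, CASAVA 1.8.2, Bowtie 1.0 and HOMER, without roles or order. The calling threshold, any pooling of libraries and the use of the input were not given there or in the labels. Since an unknown threshold and depth lie behind each list, scores were ranked only inside their own list. Starts were read as counted from 0. No list of compounds 5 or 6, the input or a stated 20 nM dose was used here. The 4 repeated intervals in the undosed compound 4 list were each kept 1 time, with the higher score. Peaks were joined at gaps of up to 1000 bp between one end and the next start.

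Shares have exact (Clopper-Pearson) 95% binomial intervals, and their differences Newcombe intervals. No p-values were computed. Among loci of several peaks, the named loci were the 5 with the most peaks and the 5 with the highest score in each list. Also named were places of several peaks in both lists of a compound with 3 or more in either (the best 6 by summed rank per compound). The pairs at the joining limit were named as well. Members and lists were chosen with earlier results of these data known. The steps were tested on 1000 simulated loci, of which 1000 had the right number of peaks and recurrence. Bands and centromeres came from the hg19 table of circlize 0.4.16 in R 4.3.3, and the work used Python 3.11.15, numpy 2.4.6, pandas 2.3.3, scipy 1.17.1 and matplotlib 3.10.9. Alternatives were other joining distances, overlap rules, score measures and subsets. The sequence of the loci and the genes at them were not analysed here, because the tables at hand were on another build.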

Additional observations from a re-analysis of the deposited data

How the results depend on the processing

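The share of peaks in loci of several peaks left its interval in 7 of 28 settings. Here and in the tallies below, keeping repeated intervals counts as a setting for each list. Only the undosed compound 4 list had any, so elsewhere that setting could change nothing. At 400 nM of compound 2 (16.8%) it was 10.9% and 13.0% with joining gaps of 0 and 500 bp, 21.0% in the upper 50% by score and 9.0% without loci within 5 Mb of a centromere. For undosed compound 4 (17.1%) it was 18.7% with 5 kb and 20.7% in the upper 50%, and for 400 nM compound 4 (24.2%) 28.6% in the upper 50%. The difference in recurrence stayed within its interval in 47 of 56 settings. Within 20% bins by score it was 2.45 (undosed compound 2), 6.18 (undosed compound 4) and 0.304 points (400 nM compound 4), and with the highest-scoring peak as well, an alternative added after seeing the data, 0.838, 6.18 and 0.304. For 400 nM compound 2 (12.4 points) it was 13.2 and 12.9 points with joining gaps of 0 and 500 bp. With 2 and 5 kb, 31.9% of 47 and 33.3% of 39 loci of several peaks recurred there. The difference was then 20.3 and 21.7 points, still within its interval. For 400 nM compound 4 it was 21.9 points in the upper 50%. With only the loci of separate stretches, also added, it was 53.7 points (undosed compound 4, 8 loci) and turned to -6.16 (400 nM compound 4, 5 loci). The difference in percentile kept to its interval in 28 of 36 settings. By the highest peak it was 35.5, 43.7, 40.8 and 41.9 points in the undosed and 400 nM lists of compounds 2 and 4, which follows from taking a maximum over more peaks. By the lowest peak it was -6.17 (reversed), 1.95, 19.6 and 15.2, where a minimum over more peaks is lower from the start. Other causes were not tested. No paired analysis was possible because each list is 1 set of intervals with no values per replicate, and no replicate could be left out. Depth is unknown.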

Other observations

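A few peaks did not have the fixed width of their list. Compound 2 had 6 of them undosed and 1 at 400 nM, and compound 4 had 138 and 19, and 137 of the 138 and 19 of the 19 were narrower than the fixed width, with median widths of 238.5 and 214 bp. Their median score percentiles were 97.0 and 98.8 in the compound 4 lists. Loci of several peaks held 56 of the 138 (40.6%) and 13 of the 19 (68.4%). Such loci held 17.1 and 24.2% of all peaks of those lists. Of the 100 highest-scoring peaks they held 50 in the undosed and 65 in the 400 nM compound 4 list. Those 100 can include the peaks of other width, so the shares of 40.6 and 68.4% cannot be set against other peaks of high score. A comparison at like score was not made. In each of the loci in 10q24.2, 6p22.1 and 2q31.1 a narrow first peak was followed by a peak of fixed width.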
